A study of Mus musculus with 9 samples.

Results

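The constitutive proteasome genes were followed in the upper colon of wild type mice kept in either of 2 housing conditions. Members were protein-coding genes with a symbol made of Psma, Psmb, Psmc or Psmd and a number, together with Psme3, Psme4 and Psmg1 to Psmg4. The inducible subunits Psmb8, Psmb9 and Psmb10 were left out by this rule. The annotation held 42 such genes, and 40 of them were counted at least once, among 22262 genes counted in all. For expression, Psma8 and Psmb11 were not analysed here.

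The comparison asks how gene expression in the colon differs between mice with long-term enriched and with standard housing. RNA came from pieces of upper colon of 9 female C57BL/6N mice aged 12 months, 1 library per mouse. The 4 mice of the SE group (numbered 1, 2, 3 and 5) lived in standard cages in small groups, and the 5 mice of the EE group (numbered 1 to 5) lived from weaning in larger cages with toys, tunnels and running wheels. All mice were wild type, and no agent was given. The same number in both groups marks different animals, and the cage of each mouse is not given in the sources used here. The paper states that EE mice were housed together in larger groups than SE mice, so mice of a group may have shared a cage. Whether a shared cage had a part in any difference was not tested.

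The proteasome degrades proteins that carry ubiquitin chains. Its barrel-shaped core, the 20S particle, is built from rings of alpha subunits that form the gate and rings of beta subunits that hold the proteolytic sites, and it is capped by the 19S particle, whose ATPases unfold the substrate and whose other subunits bind and remove ubiquitin. In inflamed or immune tissue, including the gut mucosa, interferon induces alternative catalytic beta subunits that replace the constitutive ones in newly built cores.

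Each library held one short tag per captured messenger RNA end, so that levels of genes are given without scaling for transcript length. Library totals were 383401, 356704, 299062 and 368997 molecules for the SE mice and 454043, 295535, 444520, 336967 and 426436 for the EE mice. Levels are given as normalized CPM (shortened to CPM), which are counts scaled to a common library total after correction for library composition. At these depths 3 counts, the limit that a count of 0 allows, equalled 6.61 to 10.2 CPM before scaling. The highest count of any gene was between 1177 and 1393 in every library whatever its total, whereas members had between 3 and 127 counts per library. Intervals cover the spread between mice and counting error together. Positions are on GRCm38.p6. The last 300 bases of 10 of the 40 counted members matched another gene at 95% identity or more over at least 100 bases, and for 8 of them that gene was itself counted.

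Libraries differed in markers of the position along the colon, within both groups. Slc10a2, a bile acid transporter, was read from a list of proximal colon markers. It was at 67.7, 286, 371 and 43.6 CPM in SE mice and 230.4, 10.4, 255, 12.3 and 23.1 CPM in EE mice, in the order of the mouse numbers. SE mice 2 and 3 and EE mice 1 and 3 were above 100 CPM, and the 5 other libraries were below it. Osr2, a transcription factor of the same list, was at 18.2, 258, 273 and 2.73 CPM in SE mice and 181, 0, 194, 0 and 0 CPM in EE mice and separated the same libraries. The proximal list, 3 of 4 genes counted, summed to 107, 661, 705 and 57.3 CPM in SE mice and 502, 17.4, 543, 43.2 and 48.5 CPM in EE mice, with Slc10a2 its most abundant gene and Fxyd4 without counts. The sum of the distal list did not part the libraries in this way. The list had 5 of 7 genes counted, with Prac1 and Hoxd12 without counts. It summed to 140.6, 169, 142 and 284 CPM in SE mice and 99.1, 289, 148, 167 and 136 CPM in EE mice. Its most abundant gene, Hoxa13, did part the libraries, in the opposite direction to Slc10a2. Hoxa13 was at 96.4, 30.5, 60.7 and 109 CPM in SE mice and 58.1, 101, 45.8, 77.1 and 76.2 CPM in EE mice. It was lower in each of the 4 libraries with high Slc10a2 than in any of the 5 others. Hoxb13 was at 10.4, 0, 0 and 153 CPM in SE mice and 0, 156, 45.8, 74.0 and 46.2 CPM in EE mice, whereas Hoxd10 and Hoxd11 were highest in SE mice 2 and 3, and Hoxd11 passed an unadjusted p under 0.05 towards SE. Results are also given without the 4 libraries with high Slc10a2, a choice made after the data were seen. This leaves only SE mice 1 and 5 and EE mice 2, 4 and 5. Whether position had a part in any value below was not tested beyond that.

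Other tissue markers also differed between single libraries. The smooth muscle list, 8 of 8 genes counted with Mylk the most abundant, summed to 2469, 2129, 2182 and 2754 CPM in SE mice and 2199, 3866, 2137, 3807 and 2655 CPM in EE mice. EE mice 2 and 4 were the highest, and 3 of its 8 genes (Acta2, Des and Lmod1) passed an unadjusted p under 0.05 towards EE. The epithelium list, 8 of 8 genes counted with Cdh1 the most abundant, summed to 2562, 2138, 2661 and 2623 CPM in SE mice and 2322, 2882, 2305, 2968 and 2475 CPM in EE mice, and 0 of its 8 genes passed. The fat list, 10 of 10 genes counted with Fabp4 the most abundant, summed to 1219, 106, 401 and 109 CPM in SE mice and 295, 549, 665, 345 and 125 CPM in EE mice, highest in SE mouse 1, and 1 of its 9 genes tested, Plin1, passed towards SE. The B and plasma cell list, 6 of 8 genes counted with Jchain the most abundant, summed to 346, 383, 249.5 and 376 CPM in SE mice and 338, 344, 249, 327 and 289 CPM in EE mice. Of its 5 genes tested, Cd79b, Ms4a1 and Cr2 passed towards SE on 4, 21 and 28 counts in all libraries, and Jchain had a log2 fold change of -0.01. Adipoq, a defining marker of fat, was at 0 in SE mice 2 and 5 and EE mouse 5. In such whole-tissue RNA, fewer cells of a type and less RNA per cell cannot be told apart.

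Between EE and SE, 1 of the 40 members differed at an unadjusted p under 0.05, the limit used here. This was Psmd9, an assembly chaperone of the 19S particle, which was higher in EE. Over all 17441 genes tested with edgeR, 7.65% passed the same limit, 4.31% higher and 3.34% lower in EE. The share among members was 2.5%. With the library-name ending as a term 2 of 40 members passed against 3.94% of all genes, and 2 of 40 against 3.98% without SE mice 1 and 3, so the order of the shares depended on the setting. After Benjamini-Hochberg adjustment over all genes, 0 members passed 0.05, against 0.0401% of all genes, and the lowest adjusted p among members was 0.495 in edgeR. At the unadjusted limit DESeq2 gave 0 members, against 3.69% of all genes, and limma-voom gave 1 member, against 7.78%, and both gave 0 members after adjustment. The levels of the groups did not overlap for 1 member, again Psmd9, against 2.58% of all genes.

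With all 9 mice and the scaling used for the main comparison, the members lay evenly around no difference. Of the 40 members, 20 were higher and 20 lower on average in EE, with a median log2 fold change of -0.02 (quartiles -0.13 and 0.10). Over all genes tested the median was 0.01, with quartiles of -0.25 and 0.31. With upper quartile scaling, 15 members were higher and 25 lower, and the split of all genes that passed the limit moved from 751 higher and 583 lower to 615 higher and 753 lower. That scaling set the median of all genes at -0.04, so the direction of folds close to 0 depends on the scaling. Without the 4 libraries with high Slc10a2, 15 members were higher and 25 lower, and 1 member, Psmb1, passed the limit, against 8.004% of all genes. Psmd9 did not pass in these 5 mice (SE mice 1 and 5 against EE mice 2, 4 and 5), with a log2 fold change of 0.56 against 0.54 in all 9.

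The 95% interval lay within a 1.5-fold difference in either direction for 30 of 40 members and within a 2-fold difference for 39, all but Psmg2. The median SE of the log2 fold change was 0.17 for members. The widest intervals belonged to members with few counts, among them Psmg1, Psmb5, Psmg4 and Psmg2. Of 18 genes followed singly under each alternative, 13 changed the sign of their fold change in at least 1 of them, each time uncalled in both (Psma7, Psmb6, Psmb7, Psmb8, Psmb9, Psmb10, Psmc1, Psmd7, Psmd10, Psme2, Psme4, Psmg3 and Nfe2l1), so the directions given for these genes are not stable. The 95% intervals describe each gene on its own, and an uncalled difference does not show equal levels.

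**Figure D1:**
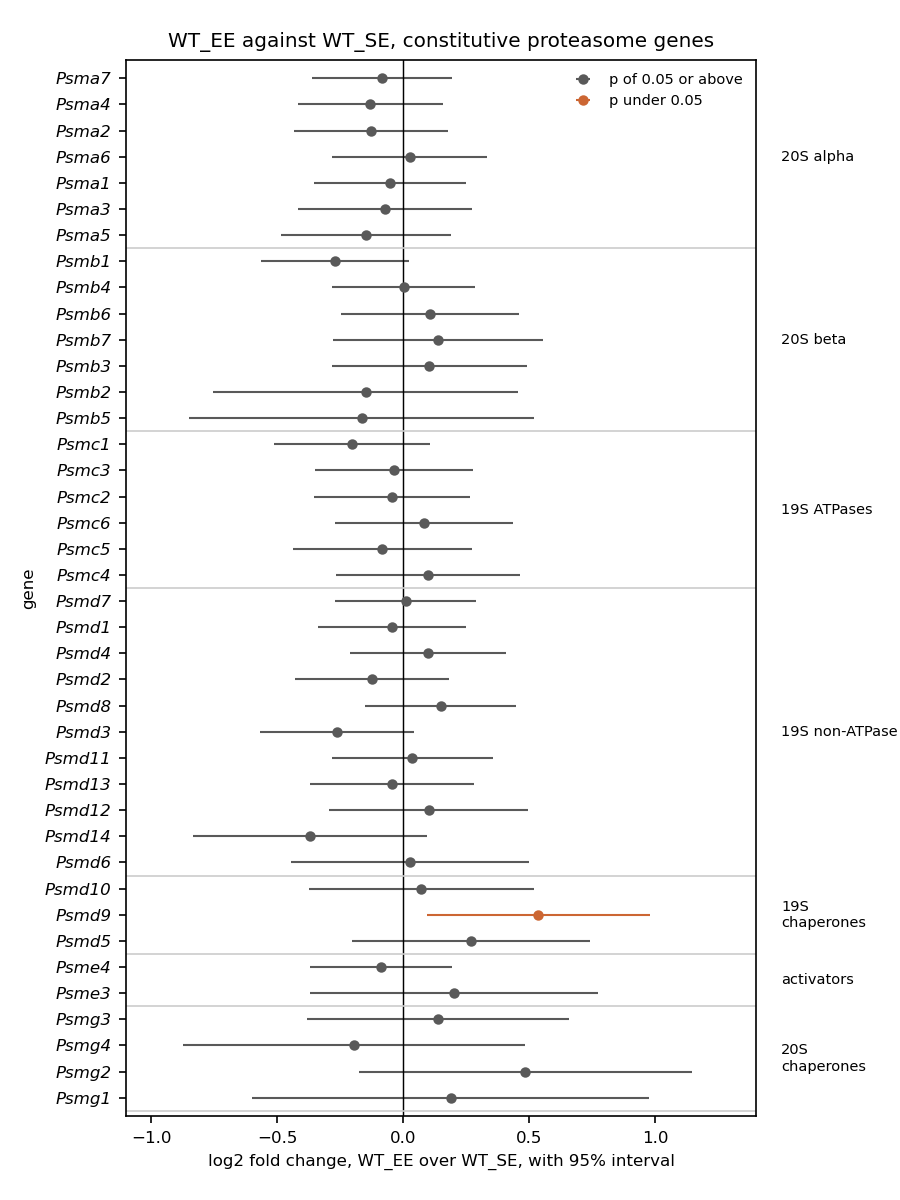
Log2 fold change of EE over SE for the 40 constitutive proteasome genes, grouped by role, with 95% intervals from the edgeR fit (4 SE and 5 EE mice). Points scatter on both sides of 0, and the interval of Psmd9 alone lies wholly on 1 side, from 0.09 to 0.98.

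Levels of the members spanned a 14.2-fold range of mean CPM. Counts above about 80 per library grew less than in proportion to the library total, so the upper levels and the ratios to them may be compressed. Psma7 was the highest with a mean of 284 CPM over all mice and Psmg1 the lowest with 19.98 CPM. Above 200 CPM were 8 members, and below 50 CPM were 6, namely Psmb2, Psmb5, Psme3, Psmg1, Psmg2 and Psmg4. By role, the median of the mean levels was 189 CPM for alpha subunits, 106 CPM for beta subunits, 142 CPM for ATPases and 157 CPM for non-ATPase subunits. Those of the assembly chaperones were 69.7 CPM for the 19S and 29.4 CPM for the 20S particle.

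**Figure D2:**
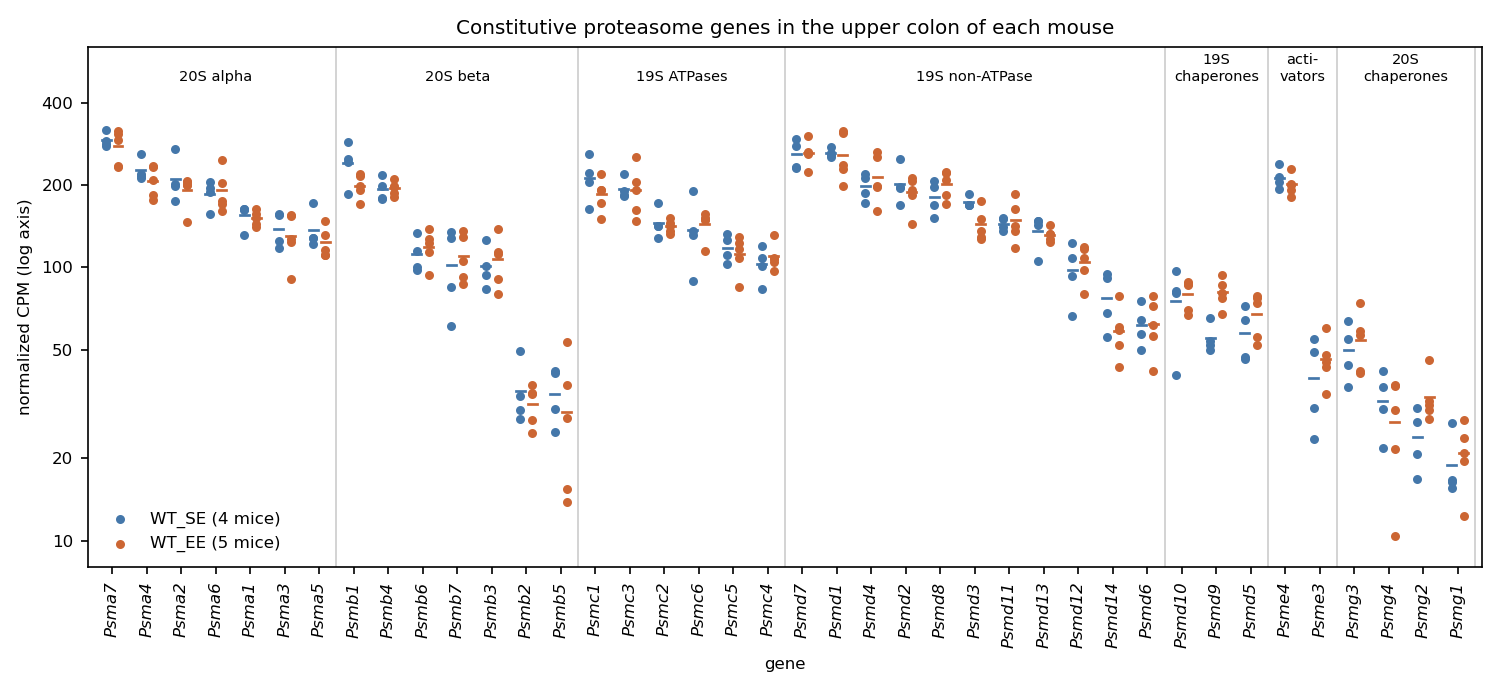
Normalized CPM (log axis) of each constitutive proteasome gene in each mouse, SE in blue and EE in orange, with group means as bars and genes ordered by mean level within each role. Most genes show overlapping groups, the assembly chaperones of the 20S particle are the lowest class, and Psmd9 is the gene whose groups stand apart.

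Alpha subunits close and open the gate of the core. Psma7 (ENSMUSG00000027566, chr2:180036374-180042433), the most abundant of them, was at 289, 278, 317 and 284 CPM in SE mice and 233, 316, 236, 308 and 293 CPM in EE mice. The groups overlapped, with EE mice 1 and 3 the lowest of all 9 mice. Its group means were 292 ± 17.4 CPM (SD, n = 4) in SE and 277 ± 40.3 CPM (SD, n = 5) in EE (log2 fold change -0.08, SE 0.14, 95% interval -0.36 to 0.19, edgeR adjusted p = 0.925, exact permutation p = 0.5). Of the 7 alpha subunits counted, 1 was higher and 6 were lower on average in EE, with log2 fold changes between -0.15 for Psma5 and 0.03 for Psma6, and 0 passed the limit. Their median was -0.08.

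Among the beta subunits, which carry or support the proteolytic sites, Psmb1 (ENSMUSG00000014769, chr17:15475021-15499751), a non-catalytic subunit, was the most abundant. It was at 286, 186, 243 and 248 CPM in SE mice and 192, 170.4, 198, 216 and 219 CPM in EE mice. The groups overlapped, since SE mouse 2 was lower than EE mice 1, 3, 4 and 5, while the other SE mice were above every EE mouse. Group means were 241 ± 41.4 CPM (SD, n = 4) in SE and 199 ± 19.8 CPM (SD, n = 5) in EE (log2 fold change -0.27, SE 0.14, 95% interval -0.57 to 0.02, edgeR adjusted p = 0.673, exact permutation p = 0.103). Its log2 fold change depended on the libraries used. It was -0.38 without SE mouse 2 and -0.39 without the 4 libraries with high Slc10a2, with unadjusted p of 0.0159 and 0.0425. It was -0.17 without SE mouse 1, -0.11 without SE mice 1 and 3 and -0.12 with the library-name ending as a term, with unadjusted p of 0.297, 0.552 and 0.513. Over all alternatives its adjusted p lay between 0.403 and 1. The 7 beta subunits counted held 4 with a higher and 3 with a lower average in EE, a median log2 fold change of 0.00, and 0 passed.

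The catalytic subunits are Psmb5, Psmb6 and Psmb7. Psmb5 (ENSMUSG00000022193, chr14:54614119-54618022), the chymotrypsin-like subunit, was at 41.7, 25, 30.4 and 40.9 CPM in SE mice and 28, 13.9, 37.1, 15.4 and 53.1 CPM in EE mice. EE mice 2 and 4 had the lowest and EE mouse 5 the highest level, so the EE group enclosed the SE group. The fold change was within this spread (log2 fold change -0.16, SE 0.34, 95% interval -0.85 to 0.52, edgeR adjusted p = 0.944, exact permutation p = 0.579). The last 300 bases of Psmb5 transcripts share a stretch of 229 bases with the pseudogene Gm3375 at 99.6% identity, and Gm3375 had 33 counts in all libraries against 111 for Psmb5, so the level of Psmb5 is uncertain where reads could be assigned to either.

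Psmb6 (ENSMUSG00000018286, chr11:70525367-70527858), the caspase-like subunit, was at 115, 99.9, 97.8 and 134 CPM in SE mice and 123, 93.9, 126, 114 and 139 CPM in EE mice. Its groups overlapped over nearly their whole range (log2 fold change 0.11, SE 0.17, 95% interval -0.25 to 0.46, edgeR adjusted p = 0.925, exact permutation p = 0.5). Psmb7 (ENSMUSG00000026750, chr2:38588036-38644087), the trypsin-like subunit, was at 128, 61.1, 135 and 84.5 CPM in SE mice and 106, 86.9, 129, 92.5 and 136 CPM in EE mice. SE mouse 2 was the lowest and EE mouse 5 the highest, and the groups overlapped (log2 fold change 0.14, SE 0.21, 95% interval -0.28 to 0.56, edgeR adjusted p = 0.915, exact permutation p = 0.635). With the ending of the library name as a term, which sets SE mice 1 and 3 apart from the other 7 libraries, the log2 fold change of Psmb7 was 0.61 with an unadjusted p of 0.0177, and without SE mouse 2 it was -0.04. Psmb7 overlaps Nek6 on the opposite strand, which had 293 counts in all libraries, and reads of the 2 genes cannot be told apart if strand was not used in counting.

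Psmb5, Psmb6 and Psmb7 each have an interferon-inducible counterpart, Psmb8, Psmb9 and Psmb10, that takes their place in the immunoproteasome. Psmb8 was at 78.1, 108, 87.7 and 68.2 CPM in SE mice and 77.5, 59.1, 85, 33.9 and 120.1 CPM in EE mice. It exceeded Psmb5 in 9 of 9 mice, by log2 ratios from 0.74 to 2.12. The mean log2 ratio was 1.32 ± 0.63 (SD, n = 4) in SE and 1.41 ± 0.40 (SD, n = 5) in EE, a difference of 0.09 (exact permutation p = 0.754). The doubt about Psmb5 counts applies to this ratio as well.

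Psmb9 was at 80.7, 94.4, 40.5 and 57.3 CPM in SE mice and 56, 83.4, 93.8, 40.1 and 83.1 CPM in EE mice. It was below Psmb6 in each of the 9 mice, with log2 ratios from -1.51 to -0.08. Psmb10 was at 130.2, 158, 111 and 128 CPM in SE mice and 155, 129, 150.5, 95.6 and 113 CPM in EE mice. It exceeded Psmb7 in 7 of 9 mice, SE mouse 3 and EE mouse 5 being the exceptions. In SE mouse 1 (50 against 49 counts) and EE mouse 4 (31 against 30) the difference was 1 count, and the doubt about reads of Nek6 applies to this ratio. Neither ratio differed between groups beyond the spread between mice, with exact permutation p of 0.960 for Psmb9 over Psmb6 and 0.579 for Psmb10 over Psmb7. Adjusted over the 3 ratios compared, each p was 0.960.

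**Figure D3:**
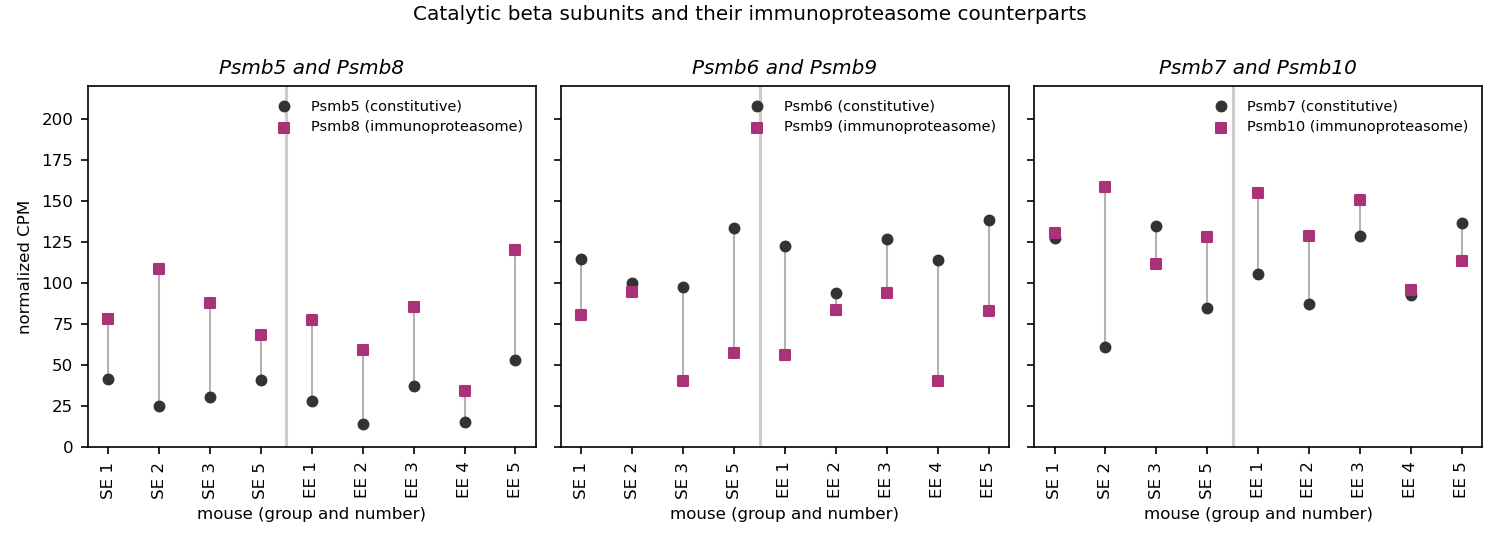
Normalized CPM of each catalytic beta subunit (dark circles) and its immunoproteasome counterpart (purple squares) in each mouse, the grey line joining the pair of a mouse and the vertical line parting 4 SE from 5 EE mice. Psmb8 lies above Psmb5 in 9 of 9 mice, Psmb9 lies below Psmb6 in 9 of 9, and Psmb10 lies above Psmb7 in 7 of 9.

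The ATPases of the 19S base thread the substrate into the core. Psmc1 (ENSMUSG00000021178, chr12:100110154-100123405), the most abundant, was at 221, 164, 259.7 and 205 CPM in SE mice and 172, 191, 150.5, 219 and 192 CPM in EE mice. SE mouse 3 was the highest and EE mouse 3 the lowest, and the groups overlapped. Group means were 212 ± 39.7 CPM (SD, n = 4) in SE and 185 ± 25.5 CPM (SD, n = 5) in EE (log2 fold change -0.20, SE 0.15, 95% interval -0.51 to 0.10, edgeR adjusted p = 0.79, exact permutation p = 0.246). Of the 6 ATPases, 2 were higher and 4 lower on average in EE, from -0.20 for Psmc1 to 0.10 for Psmc4 on the log2 scale, and 0 passed the limit.

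The non-ATPase subunits of the 19S particle bind ubiquitin chains, remove them and hold the lid together. Psmd7 (ENSMUSG00000039067, chr8:107580381-107588464), a scaffold partner of the deubiquitinase Psmd14, was the most abundant at 232, 278, 233 and 295 CPM in SE mice and 224, 264, 262, 302 and 261 CPM in EE mice. The EE values enclosed those of SE (log2 fold change 0.01, SE 0.14, 95% interval -0.27 to 0.29, edgeR adjusted p = 0.992, exact permutation p = 0.921). Of these 11 subunits, 6 were higher and 5 lower on average in EE, with log2 fold changes between -0.37 for Psmd14 and 0.15 for Psmd8, and 0 passed. Psmd3, with the lowest unadjusted p of this class (0.0875), is given here for its rank after its values were seen. It was at 185, 169, 169 and 169 CPM in SE mice and 127, 129, 150.5, 136 and 175 CPM in EE mice, and EE mouse 5 alone overlapped the SE group. Without EE mouse 5 it passed the limit, and 2 members did so in place of 1.

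Psmd9 (ENSMUSG00000029440, chr5:123169413-123250131), a PDZ-domain chaperone that holds ATPases of the base during assembly, was at 65.1, 49.97, 54 and 51.8 CPM in SE mice and 77.5, 93.9, 67.6, 86.4 and 80.8 CPM in EE mice. Each of the 5 EE mice was above the highest SE mouse, and the gap between EE mouse 3 and SE mouse 1 was the narrowest. Group means were 55.2 ± 6.79 CPM (SD, n = 4) in SE and 81.2 ± 9.82 CPM (SD, n = 5) in EE. The fold change fitted by edgeR was 1.45 with a 95% interval of 1.07 to 1.97. This is a log2 fold change of 0.54 (SE 0.22), with an unadjusted p of 0.0179 and an adjusted p of 0.495 in edgeR. The exact permutation test over all 126 ways to part the mice gave a two-sided p of 0.0159, where the smallest it can give is 0.00794. Psmd9 rests on 16 to 36 counts per library.

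Psmd9 passed the limit in 21 of 23 alternative settings, including each of the 9 fits without 1 mouse. The exceptions were the DESeq2 Wald test, with an unadjusted p of 0.0522 and a log2 fold change of 0.53, and the edgeR fit without the 4 libraries with high Slc10a2, with 0.0681 and 0.56. Over these settings the adjusted p lay between 0.326 and 1. The highest levels of Psmd9 were those of EE mice 2 and 4, which also had the highest summed markers of smooth muscle, epithelium, enteric glia, endothelium and fibroblasts. Whether tissue content had a part in the difference was not tested. Psmd9 overlaps Hpd on the opposite strand, and reads cannot be told apart if strand was not used in counting. Hpd had 150 counts in all libraries against 235 for Psmd9, and it was at 54.7, 22.2, 33.7 and 51.8 CPM in SE mice and 49.5, 24.3, 28.3, 52.4 and 73.9 CPM in EE mice, with overlapping groups (log2 fold change 0.18, SE 0.31).

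The other 19S chaperones did not differ between groups beyond the spread between mice. Psmd10 (ENSMUSG00000031429, chrX:140948429-140956728), the ankyrin-repeat protein gankyrin and the most abundant of the 3, was at 80.7, 97.2, 40.5 and 81.8 CPM in SE mice and 88.3, 69.5, 87.2, 86.4 and 67 CPM in EE mice. All EE values lay inside the SE range, whose lowest value was SE mouse 3 (log2 fold change 0.07, SE 0.22, 95% interval -0.37 to 0.52, edgeR adjusted p = 0.962, exact permutation p = 0.778). Psmd5 had a log2 fold change of 0.27 with overlapping groups and did not pass the limit. It overlaps Cutal on the opposite strand, which had 274 counts in all libraries against 217 for Psmd5, with the same doubt about strand as for Psmb7 and Psmd9. The direction of Psmd10 depended on the setting. Its log2 fold change was -0.10 without SE mouse 3, -0.15 without SE mice 1 and 3, -0.16 with the library-name ending as a term, -0.03 with the log2 library total as a term and -0.13 without the libraries with high Slc10a2.

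The alternative activators Psme3 and Psme4 bind the ends of the core without ATP and without ubiquitin. Psme4 (ENSMUSG00000040850, chr11:30771726-30880361), also known as PA200, was the more abundant at 206, 214, 239 and 194 CPM in SE mice and 202, 229, 181, 201 and 192 CPM in EE mice. The groups overlapped (log2 fold change -0.09, SE 0.14, 95% interval -0.37 to 0.20, edgeR adjusted p = 0.924, exact permutation p = 0.341). Psme3 was at a mean of 43.2 CPM, with a log2 fold change of 0.20 and overlapping groups.

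The Psmg genes encode chaperones that build the alpha ring. Psmg3 (ENSMUSG00000029551, chr5:139823592-139826885), the most abundant, was at 36.5, 63.9, 43.8 and 54.5 CPM in SE mice and 40.9, 41.7, 56.7, 58.6 and 73.9 CPM in EE mice. SE mouse 1 was the lowest and EE mouse 5 the highest, and the groups overlapped (log2 fold change 0.14, SE 0.26, 95% interval -0.38 to 0.66, edgeR adjusted p = 0.935, exact permutation p = 0.595). Log2 fold changes of the 4 genes ran from -0.19 for Psmg4 to 0.48 for Psmg2, and 0 passed the limit. Psmg4 in EE mouse 2 had 3 counts, the lowest count of any member in any library.

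The summed level of the members was 5612, 5006, 5409 and 5705 CPM in SE mice and 5072, 5232, 5103, 5658 and 5603 CPM in EE mice. SE mouse 2 was the lowest and SE mouse 5 the highest, a ratio of 1.14, and the spread over all mice was 5.18% of the mean. Group means of the sum were 5433 ± 310.3 CPM (SD, n = 4) in SE and 5333 ± 278 CPM (SD, n = 5) in EE. EE mouse 5 held the highest level of the 9 mice for 10 members and the lowest for 0. SE mouse 1 held the highest for 8 and the lowest for 3. EE mouse 1 held the highest for 0 and the lowest for 5. SE mouse 2, EE mouse 2 and EE mouse 3 each held the lowest for 7.

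The coefficient of variation of single members over 9 mice ran from 7.26% for Psmb4 to 40.4% for Psmb5, with a median of 16.4%. Counting error alone would give a median of 14.3% at these depths, and 26 of 40 members exceeded their own counting error. Psma1, Psmb4, Psmc2 and Psme4 were under 9% and below their counting error. Members with a mean of 80 to 150 counts grew with the library total at a slope of 0.78 on the log scale (5 members), against 0.54 for all 928 genes of that range, where 1 is proportional. For means of 40 to 80 counts the slope was 1.03 for 21 members and 1.04 for all 2256 genes. For means of 20 to 40 counts, the range of Psmd9, it was 1.51 for 7 members and 1.302 for all 2576 genes.

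**Figure D4:**
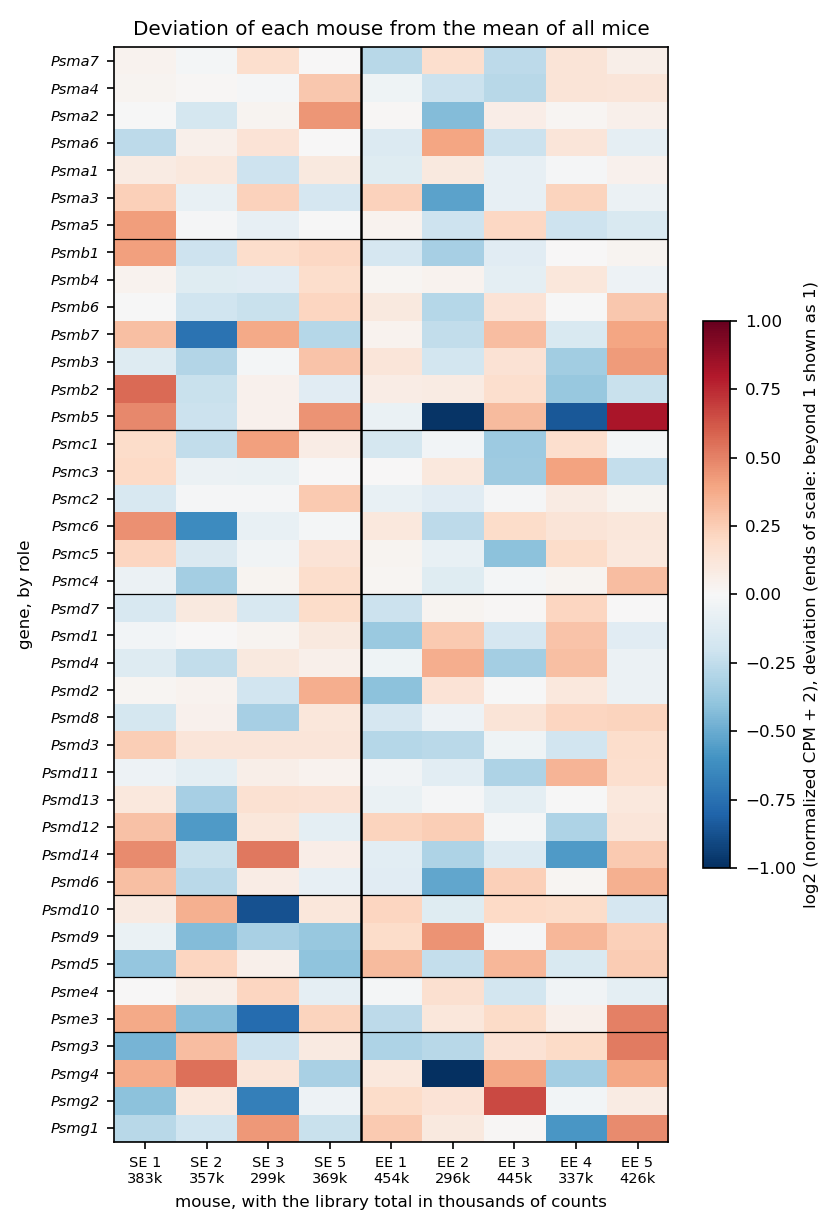
Deviation of each mouse from the mean over all 9 mice for each constitutive proteasome gene, as log2 of normalized CPM plus 2 with the line parting SE from EE. Most genes mix red and blue within both groups, Psmd9 is blue or pale in SE and red or pale in EE, and the strongest colours fall on genes with few counts such as Psmb5 and Psmg4.

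Genes that act with the proteasome were read from 6 further lists, and 0 of their 39 tested genes passed the limit in edgeR, against 7.65% of all genes. At the same limit DESeq2 and limma-voom also gave 0, against 3.69% and 7.78% of all genes, and after adjustment each of the 3 tools gave 0. The exact permutation test on single genes, unadjusted, was under 0.05 for 3 of the 39, Ddi2 and Ubqln1 (0.0317 each) and Uchl5 (0.0476), and for 1 of the 40 members, Psmd9, against 6.96% of all genes tested. Ddi2 and Ubqln1 are named after their values were seen. Of these 39 genes 19 were higher and 20 lower on average in EE, with a median log2 fold change of -0.03. The lists held 5 genes of the immunoproteasome and its PA28 activator, 11 partners outside the rule, 3 of the NFE2L1 pathway, 5 ubiquitin precursors and E1 enzymes, 9 of VCP and its cofactors and 6 shuttle factors. Their median log2 fold changes were, in this order, -0.03, 0.07, -0.08, 0.06, -0.06 and -0.02.

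Psme1 and Psme2 encode the PA28 activator of the immunoproteasome. Psme1 was at 219, 192, 206 and 172 CPM in SE mice and 151, 205, 148, 151 and 173 CPM in EE mice, with EE mice 1, 3 and 4 below every SE mouse and the groups overlapping through EE mice 2 and 5 (log2 fold change -0.26, SE 0.15, 95% interval -0.56 to 0.04, edgeR adjusted p = 0.7, exact permutation p = 0.0952). Without EE mouse 2 the log2 fold change of Psme1 was -0.33, with an unadjusted p of 0.0294 that passed the limit, and over all alternatives its adjusted p lay between 0.577 and 1. Psme2 was at 161, 144, 105 and 106 CPM in SE mice and 138, 108, 129, 83.3 and 189 CPM in EE mice. EE mouse 5 was the highest and EE mouse 4 the lowest, so that EE enclosed SE (log2 fold change 0.02, SE 0.19, 95% interval -0.37 to 0.41, edgeR adjusted p = 0.992, exact permutation p = 0.984).

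Pomp, the maturation chaperone of the beta ring, was at 232, 244, 249.5 and 210.0 CPM in SE mice and 215, 296, 218, 259 and 266 CPM in EE mice. The groups overlapped (log2 fold change 0.09, SE 0.14, 95% interval -0.19 to 0.37, edgeR adjusted p = 0.92, exact permutation p = 0.405). Nfe2l1, the transcription factor that raises proteasome genes when proteasome activity falls, was at 146, 114, 179 and 123 CPM in SE mice and 127, 139, 126, 139 and 129 CPM in EE mice. All EE values lay inside the SE range (log2 fold change -0.08, SE 0.16, 95% interval -0.41 to 0.25, edgeR adjusted p = 0.942, exact permutation p = 0.635). Uchl5, a deubiquitinase of the 19S particle, is named for the lowest unadjusted p of these lists (0.0552, adjusted p = 0.663 in edgeR), after its values were seen. It was at 62.5, 47.2, 80.9 and 68.2 CPM in SE mice and 38.8, 38.2, 52.3, 49.4 and 50.8 CPM in EE mice. The groups overlapped (log2 fold change -0.47, SE 0.24, 95% interval -0.96 to 0.01, exact permutation p = 0.0476).

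Promoter sequence was compared as a feature that the choice of members did not use. RefSeq promoters on GRCm38.p6, each from 250 bases before to 50 bases after a gene start, were matched by symbol to 34 members, with 36 promoters in all, since Psma6 and Psmc2 had 2 each. Motifs were searched on both strands, and they were chosen with the levels known. The letters CGGAAG, the core bound by ETS factors, were in 23 of 36 member promoters (63.9%), against 16.9% of all 32851 promoters and 27.2% of the 14996 promoters of tested genes. The letters TGACNNNGC, the core of the antioxidant response element that NFE2L1 and NFE2L2 can bind, were in 6 of 36 (16.7%), against 12.4% of all promoters and 14.02% of those of tested genes. CCAAT was in 13 of 36 (36.1%), against 37.4% of all promoters and 37.1% of those of tested genes. TATAAA was in 3 (8.33%), against 13.6% of all and 8.16% of tested genes. TGAGTCA was in 1 (2.78%), the promoter of Psmd9, against 5.20% of all and 3.97% of tested genes. RefSeq entries were not matched for Psma8, Psmb1, Psmb2, Psmb7, Psmc3, Psmd3, Psmd7 and Psmg2. Such a match is a description of the letters and not evidence of binding.

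Of the members with TGACNNNGC, the promoters of Psmd9, the member that passed the limit, and of Psmb5 and Psmb6, catalytic subunits, are shown with the match in capitals. They are printed 5′ to 3′ on the strand of the gene, in the order Psmd9 (chr5:123227940-123228239, plus strand), Psmb5 (chr14:54617946-54618245, minus strand) and Psmb6 (chr11:70525107-70525406, plus strand). Each holds 1 match to TGACNNNGC, which begins 31, 47 and 9 bases before the gene start of RefSeq. The TGAGTCA in the Psmd9 promoter is left in lower case. The Psmd9 start used by RefSeq lies inside the longer span that the gene annotation gives this gene.
Psmd9: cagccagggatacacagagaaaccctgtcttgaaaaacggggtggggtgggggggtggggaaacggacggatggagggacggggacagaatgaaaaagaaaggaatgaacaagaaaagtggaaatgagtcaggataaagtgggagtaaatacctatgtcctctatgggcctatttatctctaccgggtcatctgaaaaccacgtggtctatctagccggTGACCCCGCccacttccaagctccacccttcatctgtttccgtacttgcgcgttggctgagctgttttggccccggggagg
Psmb5: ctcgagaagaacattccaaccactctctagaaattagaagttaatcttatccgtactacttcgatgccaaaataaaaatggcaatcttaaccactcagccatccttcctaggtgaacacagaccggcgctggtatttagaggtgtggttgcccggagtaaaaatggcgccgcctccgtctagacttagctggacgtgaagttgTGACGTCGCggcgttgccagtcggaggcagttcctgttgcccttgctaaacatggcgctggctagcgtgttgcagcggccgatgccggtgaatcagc
Psmb6: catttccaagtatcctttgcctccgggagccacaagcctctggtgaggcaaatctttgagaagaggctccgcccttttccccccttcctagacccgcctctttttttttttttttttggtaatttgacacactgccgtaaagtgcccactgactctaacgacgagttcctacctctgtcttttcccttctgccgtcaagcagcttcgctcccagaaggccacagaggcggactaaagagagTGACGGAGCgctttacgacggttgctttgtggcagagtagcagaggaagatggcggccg
The other members with this motif were Psmc6, Psmd12 and Psme4. Whether fold changes differ between the 6 genes was not tested.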

How the data were processed

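Whole upper colon of 9 wild type mice was measured by tag sequencing of messenger RNA ends with molecular identifiers. The authors deposited counts of molecules per gene, made per the labels with fastp 0.20.0, STAR, featureCounts 1.6.0 and UMI-tools on GRCm38.p6, as whole numbers without normalization. The strand setting of featureCounts was not given. Genes were paired with symbols and positions from the GENCODE annotation, and members with RefSeq promoters by symbol.

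A gene was tested where any library reached 4 CPM (17441 genes). EE was compared with SE in R 4.3.3 with edgeR 4.0.16, TMM scaling and the quasi-likelihood F test, and p was adjusted by Benjamini-Hochberg over all genes tested. A gene is called at an unadjusted p under 0.05. Group levels and log2 ratios of single genes were compared by exact two-sided permutation over 126 ways, which cannot give a p under 0.00794. Copies of transcript ends were sought with BLAST+ 2.17.0 (at least 95% identity over at least 100 bases). Python 3.11.15 with pandas 2.3.3, numpy 2.4.6 and matplotlib 3.10.9 did the rest.

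Genes named in the text are members that were called or had groups that did not overlap, the member with the highest mean level of each role, Psmb5 to Psmb10, and Pomp, Nfe2l1, Psme1, Psme2 and any called gene of the other lists. The names of others are given with counts, as the ends of a range or as chosen after their values were seen. The members and lists were chosen with earlier results of these data known. Alternatives were DESeq2 size factors, upper quartile scaling or library size alone, other filters on low counts, DESeq2 1.42.0, limma-voom (limma 3.58.1), the newer quasi-likelihood form, the mouse number or the library-name ending as a term, SE mice 1 and 3 left out, each mouse left out and a p under 0.01. The log2 library total as a term and leaving out libraries with Slc10a2 above 100 CPM were chosen after seeing the data. Transgenic mice were not analysed here.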

Additional observations from a re-analysis of the deposited data

How the results depend on the processing

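With 1 member called of 40, the count was 2 with upper quartile scaling (Psmb1 and Psmd9), with the library-name ending as a term and without SE mice 1 and 3 (Psmb7 and Psmd9 in both). It was 3 with the log2 library total as a term (Psmb1, Psmd3 and Psmd9), and 0 with the DESeq2 Wald test and at p under 0.01. Leaving out each mouse gave 1 to 3, with 3 without SE mouse 2 (Psmb1, Psmd14 and Psmd9) and 2 without EE mouse 5 (Psmd3 and Psmd9). Without the libraries with high Slc10a2 it was 1, Psmb1, with edgeR's unadjusted value of 0.0425, while Psmd9 was at 0.0681 with a log2 fold change of 0.56 against 0.54 in all mice. The cause of these differences was not tested. No member passed adjustment with edgeR, DESeq2 or limma-voom under any setting, where 0 to 3 had an unadjusted p under 0.05.

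Of the other lists, 0 genes were called. The count was 2 with upper quartile scaling (Uchl5 and Ube4a), 1 with filterByExpr, with 4 CPM in 4 libraries and with the newer quasi-likelihood (Uchl5 in each), 1 with the log2 library total as a term (Zfand5), 2 without the libraries with high Slc10a2 (Uba1 and Zfand5), and 0 to 1 when each mouse was left out. That gene was Uchl5 without SE mouse 2, Ube3c without SE mouse 5, Psme1 without EE mouse 2 and Ube4a without EE mouse 3 or 5.

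With the mouse number as a replicate block, 1 member (Psmd9) and 1 other gene (Uchl5) were called and the median log2 fold change of members was -0.05. Over 22 settings this median lay between -0.06 and 0.03. The median log2 level of the members had a spread of 0.11 between mice, which is a spread of levels and not of fold changes. Mice that share a number are different animals, and EE mouse 4 has no partner.

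Of 414 values of 18 named genes, 360 kept direction and call, 7 became called, 2 lost the call (both Psmd9), 45 (of 13 genes) changed sign while uncalled, and 0 reversed a call. Of all genes tested 7.65% were called, against 9.36% with filterByExpr, 3.69% with DESeq2, 3.94% with the library-name ending, 3.98% without SE mice 1 and 3, 9.84% with the log2 library total, 8.004% without the libraries with high Slc10a2, and 5.19% (without SE mouse 3) to 9.14% (without SE mouse 2 or 5) when each mouse was left out. Settings not listed gave 6.71% to 8.25%.

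At 16 to 36 counts of Psmd9 per library, counting error alone gave a coefficient of variation of 19.8%. Psmg1, Psmg2, Psmg4 and Psmb5 had fewer counts on average. Their 95% intervals also cover the spread between mice. On the log2 scale these intervals were -0.60 to 0.97 for Psmg1 and -0.18 to 1.15 for Psmg2. They were -0.87 to 0.48 for Psmg4 and -0.85 to 0.52 for Psmb5. The size of difference detectable with these mice at this depth was not tested.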
